A study of Mus musculus with 18 samples.

Results

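Gene expression was described in the whisker pad of mice 1 day after the facial nerve was cut. The comparison was of the denervated right pad with the sham left pad of the same 3 mice, which makes 6 of the 18 samples of the series. The samples were taken by their labels: day 1, and side L or R. In all 9 mice of the series 2 branches of the facial nerve, the buccal and the superior marginal, were transected on the right under isoflurane, and on the left the skin was opened and closed over an intact nerve. The other 12 samples come from mice killed at day 3 (6 samples) and day 7 (6 samples). Each sample was a round punch of skin and muscle from the rostral pad, so that every value is a mixture of muscle, epidermis, hair follicle and nerve. The labels give neither the age, the sex, the strain nor the genotype of single mice. The study's methods state an age range for the sequenced mice, all adult, and the use of male and female animals. All denervated samples are right and all sham samples left, so an effect of side and an effect of the cut cannot be told apart. No unoperated mouse was included, and both sides had a skin incision.

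A motor nerve controls its muscle fibers through acetylcholine and the electrical activity it evokes. Active fibers keep the genes of the acetylcholine receptor and of the myogenic factors silent outside the synapse. After a nerve is cut, this control is lost, and denervated fibers are known for expressing receptor subunits over their whole length and, over days to weeks, for atrophy. The factors Myog, Myod1 and Myf6 are transcription factors of the basic helix-loop-helix family that bind E-boxes, short DNA elements of the form CANNTG.

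The values are TPM (a level of transcripts scaled for transcript length and library size) that were further normalized between samples, summed over the transcripts of each gene. Read depth was estimated at 14500000 to 31900000 per day 1 sample, with the denervated pad of mouse 1 the deepest. Muscle, keratinocyte and hair follicle markers were high in all 6 samples. The muscle creatine kinase Ckm was at 274, 1507 and 2476 in the sham pads of mice 1, 2 and 3 and at 537, 1342 and 1122 in the denervated pads. The amount of muscle RNA therefore differed more among mice than between sides, and the direction differed too. The summed level of 10 muscle fiber markers was 3871, 13460 and 20232 in the sham pads and 5479, 11743 and 10983 in the denervated pads. Mouse 1 had the least muscle RNA and more of it on the denervated side, and mouse 3 had less on the denervated side. In these mixed samples, fewer fibers and less RNA per fiber cannot be told apart. Over 14767 genes, the paired differences of mouse 1 had a correlation of 0.07 with those of mouse 2 and -0.07 with those of mouse 3, while those of mice 2 and 3 had a correlation of 0.34. The points of these correlations are genes of the same libraries and are not independent.

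Across 14767 genes, 44 passed the test at an adjusted p under 0.05, or 0.298% of the genes tested. Of these, 33 (0.223%) were higher in the denervated pad and 11 (0.0745%) were lower, and all 44 moved the same way in all 3 mice. The test was limma blocked by mouse, with the spread estimated from all 18 samples, while the difference itself came from the 3 day 1 mice. With the 6 day 1 samples alone, 0 genes passed in the same limma test (0%), with 915 (6.2%) at an unadjusted p under 0.05, where the fit over 18 samples had 1334 (9.03%). The smallest adjusted p there was 0.0572, that of Myog. For comparison, 15.1% of all genes tested were higher and 12.2% lower in all 3 mice, and in 5.61% and 3.95% every denervated sample was above or below every sham sample. Of the 14767 genes, 7624 had a difference above 0 and 7143 one below, which is the background for such counts in the lists below. Members of a list can vary together, so these counts are a description. Among the genes that passed, this separation held for 29 of the 33 higher genes and 9 of the 11 lower genes. Differences are given below as log2 of denervated over sham on the scale log2(value + 0.5), with the standard error of the fit, and folds are those differences as ratios. The offset of 0.5 makes the fold of a gene of low value too small.

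The number of genes that passed depended on single mice. It was 248 without mouse 1 (80 higher, 168 lower), 15 without mouse 2 and 21 without mouse 3. Of the 33 higher genes, 12 passed whichever mouse was left out: Myog, Myod1, Myf6, Cited1, Ppp1r27, Slc22a3, Alpl, Klhl30, Arpp21, Slc25a25, Srxn1 and Smad3. None of the 11 lower genes did, and 10 of them passed without mouse 1, 0 without mouse 2 and 1 without mouse 3. With the muscle marker level of each sample as a covariate, an alternative chosen after seeing the data, all 44 genes passed again within a total of 141 (65 higher, 76 lower). Of the genes added in this way, 13 belonged to a gene list. Those were Ucp3, Ankrd23, Hdac4 and Stat3 on the higher side. On the lower side they were Myom1, Slc2a4, Fbxo40, Trim55, Clcn1, Kcna7, Kcnc1, Kcnj2 and Kcnn2. The marker level was taken from the 10 muscle fiber markers in all 18 samples. One of these, Actn3, had a log2 difference of -0.001 at day 1 but of 2.61 at day 3 and 1.64 at day 7. At the later days this level therefore also holds a response to the lesion.

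**Figure D1:**
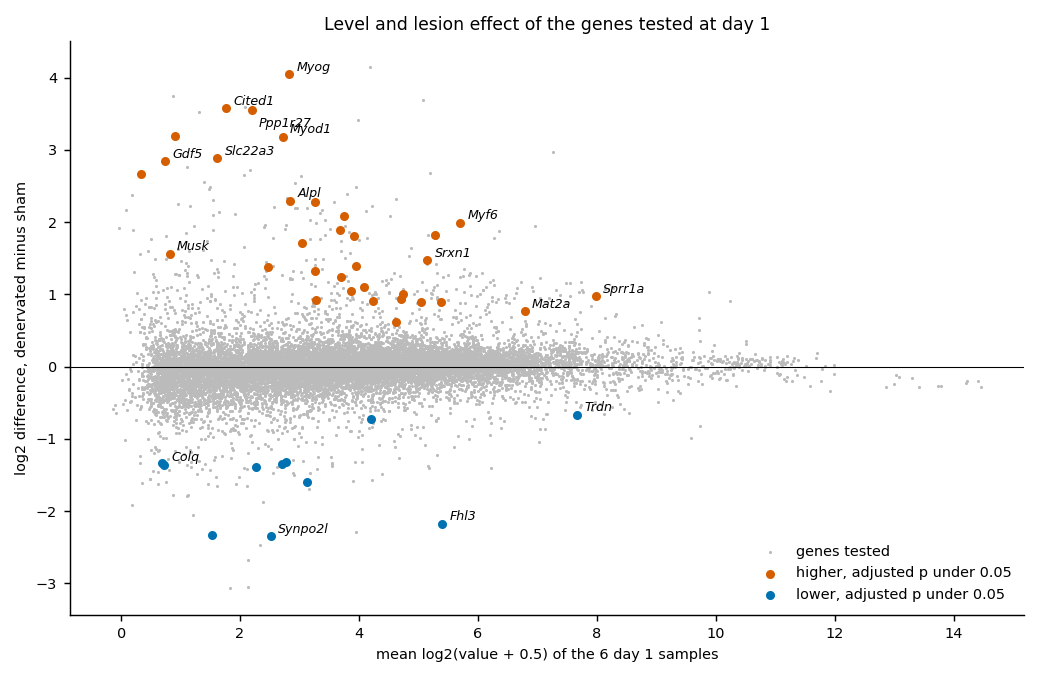
Mean level (x axis, mean log2(value + 0.5) of the 6 day 1 samples) and log2 difference between denervated and sham pads (y axis) of the 14767 genes tested. Each point is a gene. The 33 genes that passed on the higher side (orange) reach 4.05 for Myog, and the 11 on the lower side (blue) reach -2.35 for Synpo2l. Gray points with differences of this size belong to genes that varied more among mice.

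Among the myogenic factors, 3 of the 8 tested members rose, the bHLH factors Myog, Myod1 and Myf6, and 0 fell. Myog was at 0.49, 2.14 and 1.51 in the sham pads of mice 1, 2 and 3 and at 16.6, 51.5 and 26.4 in the denervated pads. The lowest denervated sample was thus far above the highest sham sample, and the log2 difference of 4.05 ± 0.26 (SE, n = 3 mice, adjusted p = 0.000851 in limma), a fold of 16.6, was the largest of all genes that passed. Myod1, the factor that commits cells to the muscle lineage, was at 0.617, 1.81 and 3.52 against 14.7, 20.1 and 24.4, again without overlap. Its log2 difference was 3.18 ± 0.24 (adjusted p = 0.00137). Myf6, the most abundant of the family in adult fibers, had sham values of 9.77, 34.4 and 49.2 and denervated values of 40.7, 198 and 137. The denervated pad of mouse 1 lay below the sham pad of mouse 3, yet each mouse had the higher value on its denervated side, with a log2 difference of 2.00 ± 0.16 (adjusted p = 0.0016).

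The remaining 5 tested members of the list did not pass. Mef2a, a MADS-box partner of the bHLH factors, was at 23.2, 27.9 and 27.5 in sham pads and 22.2, 21.6 and 19.4 in denervated pads, with a log2 difference of -0.31 ± 0.14 (adjusted p = 0.575). The median difference of the 8 tested factors was -0.08, against 0.01 over all genes tested. The satellite cell factors Pax7 and Myf5 were under the expression minimum, with Pax7 no higher than 0.251 in any sample. Of 8 satellite cell markers, 5 were tested and 1 rose, Myod1 itself. The sum of the markers, which includes Myod1, was 27.2, 52.4 and 64.2 in the sham pads of mice 1, 2 and 3. In the denervated pads it was 41.8, 62.6 and 67.6. Myod1 alone went from 0.617, 1.81 and 3.52 to 14.7, 20.1 and 24.4. In mouse 1 the sum and Myod1 rose by similar amounts. In mice 2 and 3 the sum rose by less than Myod1 did, so the sum of the other markers was lower there. A part of satellite cells in the rise of Myod1 was not tested.

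To show where E-boxes lie, the 250 bases upstream of the RefSeq start (GRCm38.p6) are given for 2 genes that rose, Myog and the synaptic kinase Musk, and for 1 of the 3 windows of Slc25a25, the only higher gene whose windows held a cyclic AMP response element. The Myog sequence is chr1:134289754-134290003 on the plus strand, that of Musk chr4:58285712-58285961 on the plus strand and that of Slc25a25 chr2:32424067-32424316 on the minus strand, and all are written 5′ to 3′. Capitals mark matches to CANNTG (E-box), TGACGTCA (cyclic AMP response element) or TGACNNNGC (core of the antioxidant response element), searched on both strands, where matches may overlap.
Myog: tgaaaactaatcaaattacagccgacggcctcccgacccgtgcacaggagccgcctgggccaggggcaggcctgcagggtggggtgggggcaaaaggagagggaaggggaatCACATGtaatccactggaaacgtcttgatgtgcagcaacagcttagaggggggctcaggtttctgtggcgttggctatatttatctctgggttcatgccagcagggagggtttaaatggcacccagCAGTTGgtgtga
Musk: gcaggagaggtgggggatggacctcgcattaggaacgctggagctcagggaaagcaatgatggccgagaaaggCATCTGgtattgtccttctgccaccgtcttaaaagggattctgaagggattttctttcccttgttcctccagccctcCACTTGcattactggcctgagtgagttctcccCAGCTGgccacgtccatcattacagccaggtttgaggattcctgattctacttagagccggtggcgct
Slc25a25: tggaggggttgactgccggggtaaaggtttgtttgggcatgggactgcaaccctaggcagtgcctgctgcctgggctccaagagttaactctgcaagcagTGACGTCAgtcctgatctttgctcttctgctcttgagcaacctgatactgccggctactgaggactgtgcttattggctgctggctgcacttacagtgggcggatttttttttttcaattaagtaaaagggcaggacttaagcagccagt
Myog had 2 E-boxes, CACATG starting 138 bases and CAGTTG starting 12 bases upstream of the start. Musk had 3, CATCTG at 177 bases, CACTTG at 100 bases and CAGCTG at 68 bases, and Slc25a25 had the element TGACGTCA at 150 bases. An E-box is common in such windows, and a gene was counted where any of its windows held the letters. Windows of 300 bases, 250 upstream and 50 downstream, were found for 23 of the 33 higher genes, and 18 of them (78.3%) held an E-box, as did 4 of the 7 lower genes with a window (57.1%) and 68.7% of the 10958 tested genes with one. The cyclic AMP element was in 1 of the 23 higher genes (4.35%), against 3.36% of all, and the antioxidant core in 5 (21.7%), against 16.7%. A match describes letters and not binding.

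**Figure D2:**
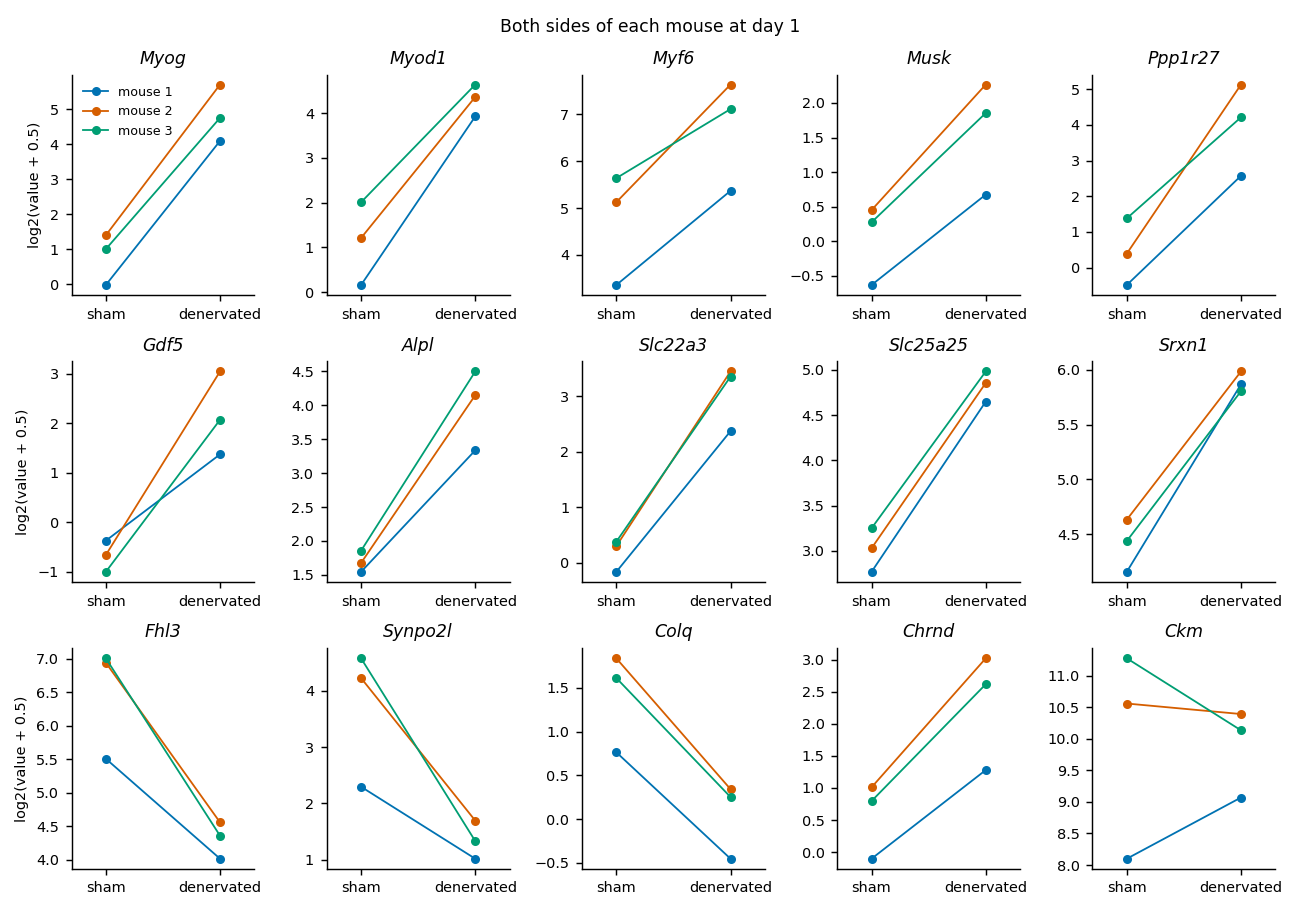
Level of 15 genes in both pads of each mouse at day 1 (y axis, log2(value + 0.5); x axis, sham and denervated), with a line per mouse. The lines of the 10 genes in the upper 2 rows all rise and those of Fhl3, Synpo2l and Colq all fall. Chrnd was higher in each denervated pad but did not pass, and the muscle marker Ckm rose in mouse 1 only.

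At the synapse, the receptor kinase Musk rose and the esterase anchor Colq fell. Musk, through which agrin clusters acetylcholine receptors, was at 0.146, 0.867 and 0.71 in sham pads and at 1.10, 4.31 and 3.12 in denervated pads. No values overlapped, and the log2 difference was 1.57 ± 0.20 (adjusted p = 0.0201 in limma). Colq, the collagen tail that holds acetylcholinesterase at the synapse, went the other way, from 1.2, 3.08 and 2.56 to 0.231, 0.768 and 0.692, with a log2 difference of -1.36 ± 0.20 (adjusted p = 0.0333). Both passed without mouse 1 (adjusted p = 0.0218 for Musk and 0.036 for Colq) and neither passed without mouse 2 (0.18 and 0.275) or without mouse 3 (0.117 and 0.16). After rescaling to the muscle markers Musk passed (adjusted p = 0.00352) and Colq did not (0.0758). This rescaling divides all genes of a sample by 1 factor, so it shifts their differences together. It also changes the spread that the test estimates over all genes, so passing under it is not a check for muscle content. Of the 19 tested organizers of the synapse these were the only ones that passed, and the median difference of the list was 0.00. The esterase Ache itself was at 9.43 ± 3.86 in sham pads and 5 ± 0.52 in denervated pads (SD, n = 3, adjusted p = 0.486 in limma). The agrin receptor Lrp4 was lower in all 3 mice (-0.49 ± 0.18, adjusted p = 0.443), whereas the adaptor Dok7 was lower in 2 of 3 (-0.17 ± 0.24, adjusted p = 0.881).

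The acetylcholine receptor subunits were higher in the denervated pad in every mouse, but none passed. Chrnd was at 0.43, 1.51 and 1.24 against 1.93, 7.63 and 5.64, with a log2 difference of 1.74 ± 0.34 (adjusted p = 0.102). Chrnb1 was at 7.80, 15.2 and 17.3 against 12.9, 37.6 and 35.6 (1.00 ± 0.18, adjusted p = 0.0778). Chrna1 had a difference of 1.10 ± 0.30 (adjusted p = 0.262). The adult subunit Chrne had one of 0.58 ± 0.23 (adjusted p = 0.504), and the fetal subunit Chrng was under 0.1 in all 6 samples and was not tested. The median difference of the 4 tested subunits was 1.05 at day 1. In the other mice it was 3.22 at day 3 and 2.54 at day 7. The lesion effect on Chrna1 and Chrnb1 was larger at day 3 than at day 1 in a test of that difference (2.57, adjusted p = 0.0468, and 1.78, adjusted p = 0.028), and for Chrnd this test did not pass (2.05, adjusted p = 0.113). In mouse 1 the median difference of the subunits was 0.61, beside a muscle marker difference of 0.75, and in mice 2 and 3 it was 1.34 and 1.2, beside -0.18 and -0.90. With all values rescaled to the muscle markers, Chrnd passed (2.04, adjusted p = 0.00243), and with the muscle marker level as a covariate it did not (1.75, adjusted p = 0.0867). As for Musk, the pass under rescaling is not a check for muscle content.

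Among 17 tested regulators of the denervation response, Ppp1r27 and Gdf5 rose and none fell, and the median difference was 0.91. Ppp1r27, a regulatory subunit of protein phosphatase 1, was at 0.212, 0.809 and 2.1 in sham pads and at 5.45, 34.6 and 18.1 in denervated pads (3.55 ± 0.39, adjusted p = 0.00935). Gdf5, a ligand of the bone morphogenetic protein family that is known to protect denervated muscle from atrophy, was at 0.274, 0.133 and 0 against 2.09, 7.79 and 3.71 (2.84 ± 0.37, adjusted p = 0.0201). Its groups did not overlap, but its adjusted p was 0.167 without mouse 2 and 0.126 without mouse 3. Of the 17, 12 were higher in all 3 mice, against 15.1% of all genes. The list was chosen with earlier results of these data known, so this count is a description and not a test. Hdac4, a deacetylase that represses Mef2 targets in denervated muscle, was at 9.09, 8.52 and 8.02 against 11.9, 14.4 and 15.4 and did not pass (0.66 ± 0.13, adjusted p = 0.0952). Its relative Hdac5 was lower in all 3 mice (-0.25 ± 0.12, adjusted p = 0.599).

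The muscle ankyrin repeat proteins, sensors of stretch at the sarcomere, were also higher in every mouse without passing. Ankrd1 was at 0.531, 3.79 and 6.43 against 4.02, 145 and 8.79, so that its difference of 2.55 ± 0.72 (adjusted p = 0.289) came largely from mouse 2. Ankrd23 had a difference of 1.26 ± 0.29 (adjusted p = 0.175) and Gadd45a, a stress protein of atrophying muscle, one of 1.24 ± 0.35 (adjusted p = 0.296). Runx1 was at 8.10 ± 1.89 in sham pads and 12 ± 2.08 in denervated pads (SD, n = 3, 0.55 ± 0.15, adjusted p = 0.273 in limma). Its lesion effect was 1.68 larger at day 3 (adjusted p = 0.02 for the difference).

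Cited1, which no list held, rose without overlap. It encodes a coactivator that binds CBP and p300. It was at 0.406, 0.574 and 0.475 in sham pads and at 7.40, 14.7 and 12.9 in denervated pads, a fold of 11.9 (log2 3.58 ± 0.29, adjusted p = 0.0016). The rise was therefore from near the limit of detection to a moderate level.

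Among the genes of ion transport across the membrane, the sodium-calcium exchanger Slc8a3 rose. The adult sodium channel Scn4a was at 8.53 ± 6.27 in sham pads and 9.90 ± 3.02 in denervated pads (SD, n = 3, 0.51 ± 0.29, adjusted p = 0.661 in limma). Slc8a3 went from 3.27 ± 1.70 to 8.87 ± 3.18 (SD, n = 3, 1.38 ± 0.21, adjusted p = 0.0395 in limma). It did not pass with any 1 of the 3 mice left out (adjusted p = 0.06, 0.183 and 0.164 without mice 1, 2 and 3) or without the mouse block (0.22).

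Of the 18 tested genes of membrane excitability, 13 had a negative difference and none of these passed. Chloride and potassium channels were closest to the threshold on the lower side. Clcn1, the chloride channel that stabilizes the resting potential of fibers, was at 4.07, 12.5 and 15.3 against 2.27, 3.70 and 3.27 (-1.48 ± 0.24, adjusted p = 0.0502). Kcnn2, a small-conductance calcium-activated potassium channel, was at 1.94, 5.16 and 4.34 against 0.733, 1.04 and 1.11 (-1.48 ± 0.24, adjusted p = 0.0502). Both were lower without overlap, and Kcna7 (-1.41 ± 0.27), Kcnc1 (-1.63 ± 0.32) and Kcnj2 (-0.83 ± 0.16) were lower in all 3 mice. With the muscle marker level as a covariate, these 5 channels passed, with adjusted p from 0.00362 for Kcna7 to 0.0449 for Kcnn2. After rescaling to the same markers only Kcnc1 did (adjusted p = 0.0228), and the other 4 had adjusted p from 0.0624 for Clcn1 to 1 for Kcnj2. The median difference of the list was 0.51 in mouse 1, -0.63 in mouse 2 and -1.26 in mouse 3, beside muscle marker differences of 0.75, -0.18 and -0.90.

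In the calcium store, triadin fell. Trdn, which links the release channel of the sarcoplasmic reticulum to calsequestrin, was at 150, 303 and 370 in sham pads and 95.9, 216 and 201 in denervated pads. The groups overlapped, but each mouse was lower on the denervated side (-0.67 ± 0.10, adjusted p = 0.0468, and 0.0512 to 0.217 with a mouse left out). The other 15 tested genes of calcium handling did not pass, and the list's median was 0.50, -0.48 and -1.06 in mice 1, 2 and 3. One of them, sarcolipin (Sln), an inhibitor of the calcium pump, was at 16.9, 39.3 and 27.4 against 26.0, 76.1 and 67.6 (0.94 ± 0.23, adjusted p = 0.215). Its difference had the opposite sign in the mice of day 3 (-1.53) and day 7 (-2.86).

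Other genes that fell are known from the fiber itself. Synpo2l, a protein of the Z-disc, was at 4.41, 18.2 and 23.3 in sham pads and at 1.52, 2.73 and 2.01 in denervated pads (-2.35 ± 0.36, adjusted p = 0.0429). Fhl3, a LIM-domain protein that binds actin, was at 45.0, 122 and 128 against 15.7, 23.1 and 20.02 (-2.17 ± 0.24, adjusted p = 0.00972). In both, the denervated values were close to each other and the sham values were lowest in mouse 1, the mouse with the least muscle RNA. Neither passed without mouse 2 (adjusted p 0.328 and 0.117) or without mouse 3 (0.187 and 0.0742). The kelch protein Klhl31 (-1.34 ± 0.21, adjusted p = 0.048), the SOCS-box protein Asb14 (-1.32 ± 0.20, adjusted p = 0.0348), the carnosine synthase Carns1 (-1.39 ± 0.19, adjusted p = 0.0249) and the glycolytic regulator Pfkfb1 (-1.60 ± 0.21, adjusted p = 0.0204) fell without overlap. Lrrc3b (-1.34 ± 0.18) and the Ras inhibitor Rasa4 (-0.72 ± 0.11) also fell. The remaining lower gene was a predicted gene without a proper symbol.

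For the contractile apparatus the mice differed in direction. Of 21 tested sarcomere genes 0 passed, 5 were above 0 and 16 below, and the median was 0.60, -0.17 and -0.75 in mice 1, 2 and 3. The skeletal actin Acta1 was at 404, 1677 and 2907 against 824, 1948 and 1848 (0.20 ± 0.28, adjusted p = 0.882). Energy metabolism (20 genes) and the respiratory chain (24 genes) also had 0 that passed, with medians of -0.26 and -0.14, and their medians by mouse ran in the same order as those of the muscle markers. A pair of metabolic genes was far from the median without passing. Ucp3, a mitochondrial uncoupling protein, was at 5.56, 29.9 and 37.1 against 47.3, 78.3 and 81.3 (1.82 ± 0.43, adjusted p = 0.183). The insulin-regulated glucose transporter Slc2a4 was at 32.6, 112 and 148 against 30.6, 44.2 and 48.2 (-1.01 ± 0.26, adjusted p = 0.241). With the muscle covariate both passed in limma (adjusted p = 0.0395 for Ucp3 and 0.0266 for Slc2a4). After rescaling to the muscle markers Ucp3 passed (2.01, adjusted p = 0.0022) and Slc2a4 did not. For Ucp3 too, the pass under rescaling is not a check for muscle content.

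Among the ubiquitin ligases of atrophy, none passed. Of 15 tested ligases 0 passed, 5 were above 0 and 10 below, and none was higher in all 3 mice. Fbxo32 (atrogin-1) was at 6.87, 14.2 and 17.2 against 5.97, 16 and 13.6 (-0.12 ± 0.20, adjusted p = 0.902), and Trim63 (MuRF1) at 11.5, 39.9 and 49.7 against 11.4, 100.3 and 54.2 (0.47 ± 0.22, adjusted p = 0.571). Trim63 was thus much higher in the denervated pad of mouse 2 only. Fbxo40 (-1.29 ± 0.27, adjusted p = 0.136) and Trim55 (-1.20 ± 0.27, adjusted p = 0.161) were lower in all 3 mice, and both passed on the lower side with the muscle covariate (adjusted p = 0.0248 and 0.0273) but not after rescaling to the muscle markers (0.166 and 0.238). Of 31 proteasome subunits 29 were above 0, with a list median of 0.10, and of 20 genes of autophagy and lysosome 17, with a median of 0.16. In all 3 mice, 13 of the 31 subunits and 6 of the 20 autophagy and lysosome genes were higher, against 15.1% of all genes tested. In either list 0 passed. A pair of genes outside this list rose. The kelch protein Klhl30 was at 4.48 ± 2.96 in sham pads and 22.7 ± 10.7 in denervated pads (SD, n = 3, 2.28 ± 0.21, adjusted p = 0.00292 in limma). The SOCS-box protein Asb5 was at 24.0 ± 14.9 and 80.9 ± 46.8 (SD, n = 3, 1.82 ± 0.24, adjusted p = 0.0201 in limma).

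Alpl, Slc22a3, Slc25a25 and Slc41a3, which belong to no list, rose at day 1. Alpl, the tissue-nonspecific alkaline phosphatase, was at 2.42, 2.70 and 3.12 in sham pads and at 9.59, 17.2 and 22.0 in denervated pads (2.30 ± 0.16, adjusted p = 0.000851). Slc22a3, an organic cation transporter, was at 0.394, 0.733 and 0.802 against 4.68, 10.4 and 9.74 (2.89 ± 0.19, adjusted p = 0.000851). Slc25a25, the calcium-regulated carrier of ATP-magnesium and phosphate of mitochondria, was at 6.31, 7.66 and 9.01 against 24.6, 28.5 and 31.1 (1.81 ± 0.15, adjusted p = 0.00166). In these 3 genes the groups were far apart. The differences of the 3 mice were close together in Slc25a25, at 1.88, 1.83 and 1.73. They were further apart in Alpl, at 1.79, 2.47 and 2.64, and in Slc22a3, at 2.53, 3.15 and 2.97. Slc41a3, a magnesium transporter, was at 2.55, 7.61 and 10.5 against 23.1, 27.9 and 30.9 (2.09 ± 0.25, adjusted p = 0.0135, and 0.0817 without mouse 2).

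Smaller rises, in genes chosen after their values were seen, were those of the mitochondrial alanine transaminase Gpt2 (from 18.8 ± 5.78 to 38.9 ± 12.8, SD, n = 3, 1.01 ± 0.10, adjusted p = 0.00493 in limma), the muscle phosphorylase kinase subunit Phka1 (0.94 ± 0.13), the sphingomyelin synthase Sgms1 (0.91 ± 0.12), the S-adenosylmethionine synthetase Mat2a (0.77 ± 0.11) and the nucleotide hydrolase Nudt18 (0.62 ± 0.10). All 5 were higher in each mouse, and their adjusted p without mouse 2 ran from 0.0715 for Gpt2 to 0.403 for Nudt18. Gpt2 passed without mouse 3 (adjusted p = 0.0388) and the other 4 did not.

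The next genes that rose belong to no list, and most were chosen after their values were seen. Srxn1, sulfiredoxin, which repairs oxidized peroxiredoxins, was at 17.4, 24.3 and 21.2 against 57.9, 62.8 and 55.4 (1.48 ± 0.13, adjusted p = 0.00188). Osgin1, a gene induced by oxidative stress, was at 11.1 ± 1.35 and 24.6 ± 4.06 (SD, n = 3, 1.10 ± 0.15, adjusted p = 0.0254 in limma, and 0.169 without mouse 2). Arpp21, a phosphoprotein regulated by cyclic AMP, was at 6.49 ± 2.49 and 26.1 ± 10.8 (SD, n = 3, 1.90 ± 0.16, adjusted p = 0.0016 in limma). The cyclic AMP response modulator Crem was at 8.43, 10.3 and 10.5 against 17.1, 24.0 and 21 (1.05 ± 0.13, adjusted p = 0.0158). Nfil3, a bZIP repressor, was at 28.3, 23.5 and 19.7 against 47.2, 45.3 and 40.8 (0.90 ± 0.12, adjusted p = 0.0201). Smad3, which carries signals of the TGF-β family to the nucleus, was at 6.32, 8.73 and 8.94 against 14, 22.1 and 23.8 (1.25 ± 0.11, adjusted p = 0.00213). The bHLH factor Atoh8 (1.71 ± 0.23, adjusted p = 0.023) and the membrane protein Tmem100 (1.39 ± 0.21, adjusted p = 0.0365) also rose. The phosphatase Dusp13 (0.89 ± 0.13, adjusted p = 0.0273) and the adhesion receptor Pvr (0.93 ± 0.11, adjusted p = 0.0132) rose as well.

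Immediate early genes were mostly above 0 without passing, with 1 exception. Of 25 tested, Atf3 rose, 19 were above 0 and 6 below, and the median was 0.33. Atf3, a bZIP factor of cell and nerve injury, was at 4.02, 9.41 and 4.51 in sham pads and at 15.4, 17.9 and 11.5 in denervated pads (1.32 ± 0.17, adjusted p = 0.0201, and 0.108 without mouse 3). Btg2 was at 29.1 ± 5.70 and 42.2 ± 4.34 (SD, n = 3, 0.54 ± 0.10, adjusted p = 0.0894 in limma), and Egr1 at 29.6 ± 5.93 and 37.2 ± 1.11 (0.34 ± 0.10, adjusted p = 0.32 in limma). Ribosome biogenesis genes had a positive difference in 18 of 18 (median 0.23), in which mouse 1 had a median of -0.02 and the other mice 0.41 and 0.34, and 0 passed.

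In the skin, the small proline-rich protein Sprr1a rose and the other alarmins varied among mice. Sprr1a, a cross-linked component of the stressed cornified envelope that is also known from injured neurons, was at 185, 165 and 194 in sham pads and at 431, 335 and 310 in denervated pads (0.97 ± 0.12, adjusted p = 0.0156, and 0.167 without mouse 2). It was the only 1 of 20 tested alarmins and barrier-stress keratins that passed, although 18 were above 0 with a median of 1.00. The median by mouse was 1.02, 2.71 and 0.45. Krt6b, a keratin of wounded epidermis, was at 0.637, 2.02 and 39.5 against 2.61, 330 and 134 (3.41 ± 0.99, adjusted p = 0.308). Its sham value in mouse 3 was above the denervated value of mouse 1, so that the groups overlapped. Keratinocyte markers had a median of 0.05 and 0 that passed, and hair follicle markers ran from 1988, 2189 and 1448 in sham pads to 5179, 1398 and 2092 in denervated pads.

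Leukocyte markers were uneven among mice. The sum of neutrophil markers was 90.2, 115 and 1070 in sham pads and 181, 2040 and 1092 in denervated pads, and S100a8 made up much of it at 15.8, 21.4 and 453 against 71.6, 1319 and 830 (2.98 ± 0.78, adjusted p = 0.242). The median difference of the 7 tested neutrophil markers was -0.30, so the sum and the median differed in sign. By mouse this median was 0.70, 0.09 and -1.25 in mice 1, 2 and 3. The denervated pad of mouse 2 stood apart in some genes and the sham pad of mouse 3 in others. In the denervated pad of mouse 2 Saa3, an acute phase protein, was at 778, against at most 12.3 in the other 5 samples. The chemokine Cxcl5 was at 70.2 there, against at most 1.72, and Il6 at 9.51, against at most 0.446. The last 2 of these genes were under the expression minimum and were not tested. In the sham pad of mouse 3 the chemokine Ccl4 was at 9.08, against at most 0.789 in the other 5 samples, and Ccl3 at 6.82, against at most 0.546. Cxcl3 was at 4.88 there and at 4.31 in the denervated pad of mouse 2. These chemokines were under the expression minimum too. Of 16 tested genes of the IL-6 family and its targets 0 passed, and 14 were above 0. Stat3 was at 44.5, 51.3 and 51.0 against 59.97, 86.5 and 68.9 (0.54 ± 0.09, adjusted p = 0.0605), and without overlap. Ccl2, the chemokine that attracts monocytes, was higher in each mouse (1.41 ± 0.40, adjusted p = 0.299), whereas 12 of 13 macrophage markers were below 0. The mice differed here too, with macrophage medians of 0.56, -0.65 and -1.21 in mice 1, 2 and 3, and 0 of the markers were lower in all 3. Interferon-stimulated genes were below 0 in 15 of 19 (median -0.33), and 0 passed. Their medians were -0.11, -0.10 and -0.69 in mice 1, 2 and 3, and 8 of the 19 were lower in all 3 mice, against 12.2% of all genes tested.

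Schwann cells of the cut nerve gave no common direction. The 15 tested myelin genes had a median of -0.32 in mouse 1, -1.71 in mouse 2 and 0.63 in mouse 3, and 0 passed. The repair Schwann cell genes had a median of 0.16 with 0 of 16 that passed. Other lists without a gene that passed were those of polyamine metabolism, chemokines and cytokines, matrix remodeling, collagens, cell cycle, circadian clock, heat shock proteins and glucocorticoid response, with medians between -0.09 for the clock and 0.18 for the matrix genes. Metallothionein Mt1, a target of glucocorticoids and metals, was at 595, 550 and 886 against 684, 2211 and 1670 (1.04 ± 0.29, adjusted p = 0.268). In all, 20 of the 27 gene groups had no gene that passed, and 33 of the 44 genes belonged to no group.

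**Figure D3:**
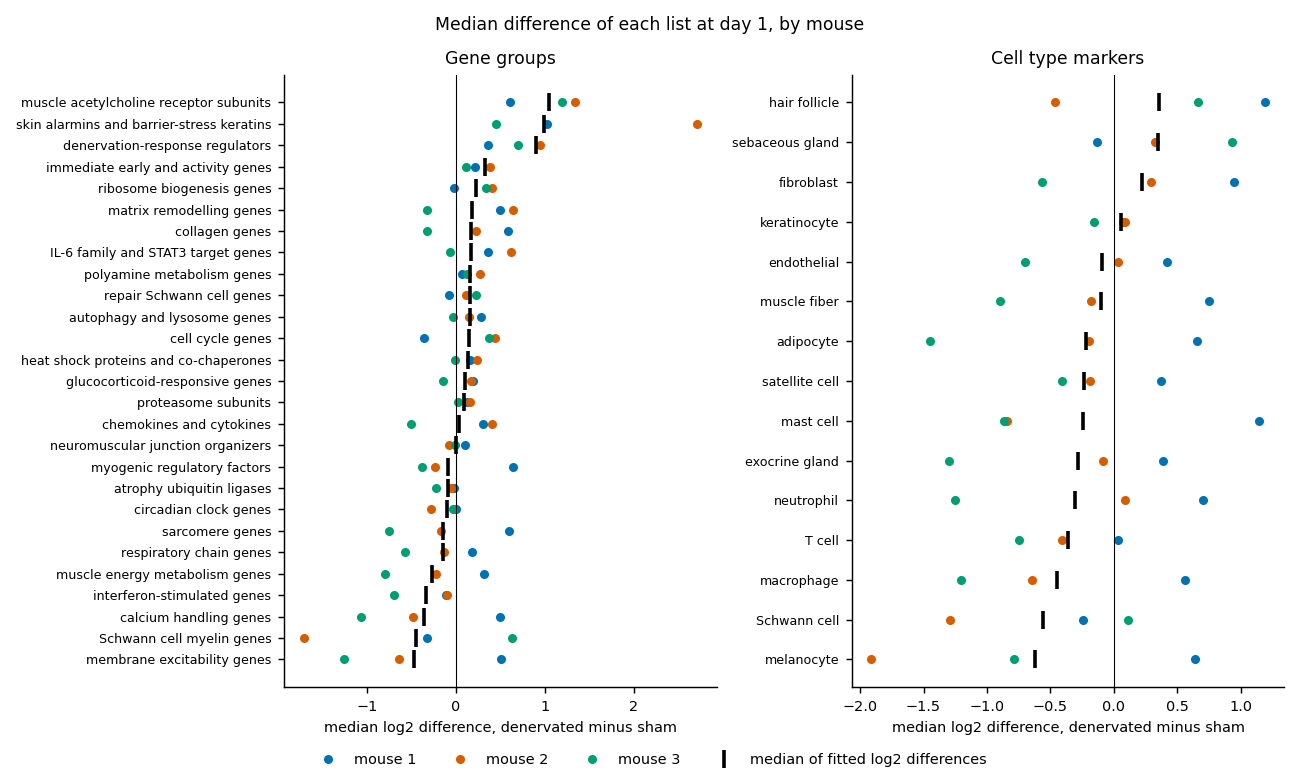
Median log2 difference between denervated and sham pads (x axis) of 27 gene groups (left) and 15 sets of cell type markers (right) at day 1. Dots are the medians of the 3 mice and black bars the medians of the fitted differences. The receptor subunits, skin alarmins, denervation regulators, immediate early genes, polyamine genes and proteasome subunits lie above 0 in each mouse, while the muscle markers run from 0.75 in mouse 1 to -0.90 in mouse 3 and the myelin genes from -1.71 in mouse 2 to 0.63 in mouse 3.

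The genes that changed at day 1 were followed in the mice of the later days, which share no sample with those of day 1. The spread that served to pick these genes came from all 18 samples and was used again in the later tests. Those tests are therefore not independent of the choice of genes, and the counts that passed are a description. Of the 33 higher genes, 29 had a positive difference at day 3 and 19 of these passed, and 25 had one at day 7 and 13 passed. Of the 11 lower genes, 9 and 10 were again lower and 6 passed at each day. The share of all genes that passed, in either direction, was 3.24% at day 3 and 2.34% at day 7. Myog had differences of 5.21 and 4.37, Myf6 of 2.00 and 2.36, and Smad3 of 1.03 and 1.05, all past the test. A second set was higher at day 1 and near 0 or below later. Alpl had 0.16 at day 3 and -0.69 at day 7, Slc22a3 0.46 and 0.03, Slc25a25 0.49 and 0.02, and Slc41a3 -0.53 and -1.40.

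In tests of the difference between days, these 4 genes had a larger effect at day 1 than at either later day. For Alpl the log2 difference from the day 1 effect was -2.14 at day 3 (adjusted p = 0.0123) and -2.99 at day 7 (adjusted p = 0.00519). For Slc22a3 the differences from day 1 were -2.42 and -2.86 (adjusted p = 0.0124 and 0.00983), for Slc25a25 -1.33 and -1.79 (0.0461 and 0.0258) and for Slc41a3 -2.62 and -3.50 (0.0226 and 0.0125). Sprr1a was lower than at day 1 at day 3 alone (-1.64, adjusted p = 0.012), and Cited1 (-3.40, adjusted p = 0.0258), Srxn1 (-1.35, 0.0386), Gpt2 (-1.03, 0.0445) and Nfil3 (-1.16, 0.0482) were so at day 7. Dusp13 (2.29, adjusted p = 0.007) and Pvr (1.2, adjusted p = 0.0199) instead had a larger effect at day 3. In all, the effect at day 3 was higher than at day 1 for 49 genes (0.332%) and lower for 21 (0.142%), and that at day 7 for 10 (0.0677%) and 11 (0.0745%). With 1 mouse left out, the total of 70 at day 3 ran from 1 to 157, and that of 21 at day 7 from 0 to 126. Both lowest values came from leaving out a mouse of the later day, and both highest from leaving out mouse 1 of day 1.

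**Figure D4:**
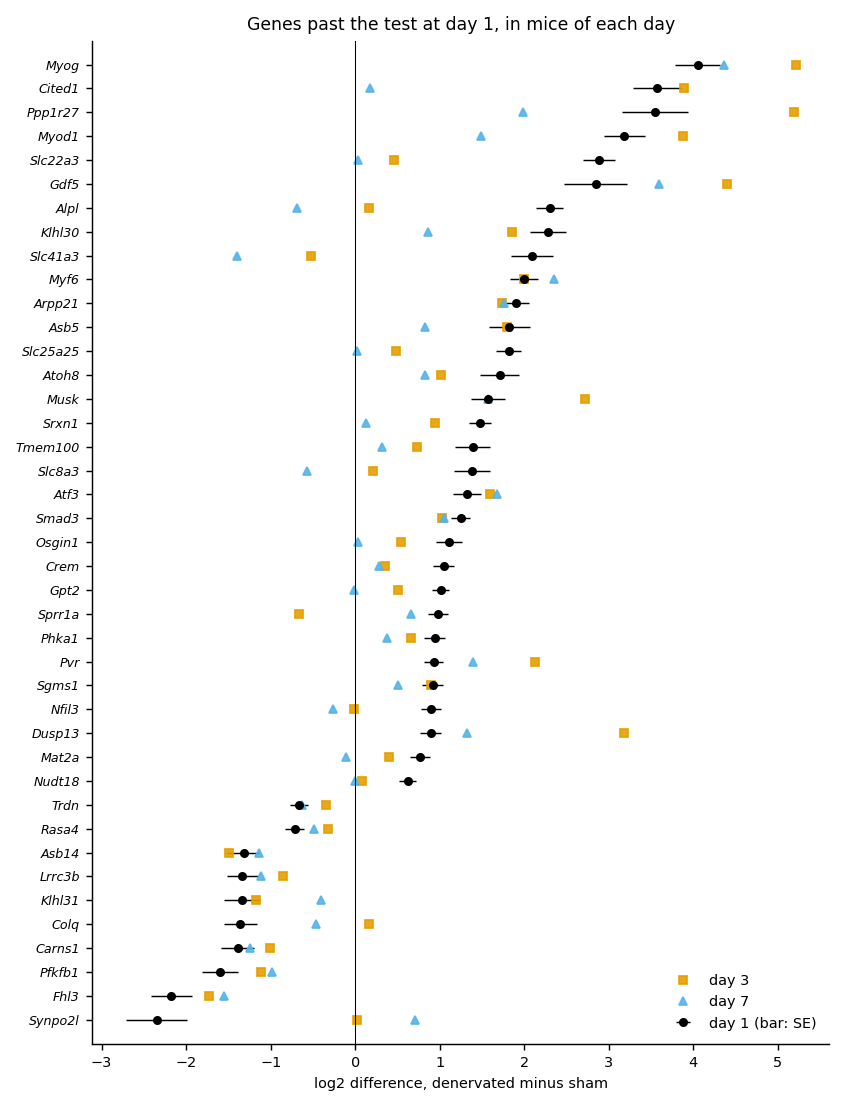
Log2 difference between denervated and sham pads (x axis) of 41 genes with a proper symbol that passed at day 1, in the mice of day 1 (black, with the standard error), day 3 (orange) and day 7 (blue). Myog stays far above 0 at all 3 days, whereas Alpl, Slc22a3, Slc41a3 and Slc25a25 lie near or below 0 at days 3 and 7 (at most 0.49).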

How the data were processed

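RNA of 18 whisker pad biopsies (9 mice, both sides, 3 mice per day) was sequenced after a TruSeq RNA v2 preparation, a kit that does not mark strand. Per the labels and the study's methods, the authors demultiplexed the reads with bcl2fastq 2.17.1.14, used ParDRe against duplicate reads and Fastp for trimming, and quantified transcripts with kallisto 0.43.1 and sleuth. The deposited values are a signal on the TPM scale that the authors normalized further between samples: day 1 columns summed to between 833186 and 1035937 and not to an equal total. Read counts were not used, and depth was estimated from the steps between low values of long transcripts. This depth bears on counting error only.

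Of 113194 transcripts, 111362 (98.38%) matched GENCODE M21 and were summed into 35071 genes, and 1832 did not match and were left out. The 14767 genes that reached a value of 1 in 47% or more of the day 1 samples were kept. Differences of log2(value + 0.5) were tested with limma 3.58.1 (R 4.3.3) allowing the variance to follow the mean, 2-sided, and p was adjusted by Benjamini-Hochberg with a threshold of 0.05. One fit took the 6 day 1 samples alone, as the study's methods take each day separately, with the mouse added here as a block (2 residual degrees of freedom), and the other all 18 samples with a lesion term per day (6 residual degrees of freedom). Same-numbered samples come from 1 animal, and the correlation of their deviations was 0.428, 0.13 and 0.343 at day 1. Scripts were tested on simulated data. Alternatives changed the offset, the filter, the trend, the block, the scaling, the transcript taken and the mice, and the muscle covariate was added after seeing the data.

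Genes were named by a rule: members of 27 pathway and 15 cell type lists, the 15 largest rises and falls among genes that passed in all 3 mice, genes past the 6-sample test, and the 5 of smallest adjusted p for each difference between days. Others are named as chosen after their values were seen. The comparison and the lists were chosen with earlier results of these data known. Sequences are from RefSeq on GRCm38.p6. Figures used Python 3.11.15 and matplotlib 3.10.9. Results for some genes are not reported here.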

Additional observations from a re-analysis of the deposited data

Results flagged for a closer look

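The results given here are those where the effect of the lesion differed between days in a test of that difference (limma, log2 of the later day's effect minus that of day 1), among genes that passed at day 1, members of the gene lists and the 5 of smallest adjusted p for each later day. The mice of each day are different animals. In 16 of these 35 results the later effect was smaller or more negative, and in 19 it was larger. The choice of genes bears on this balance, since genes that passed on the higher side at day 1 are among them. Over all genes tested, the day 3 effect was higher than at day 1 for 49 and lower for 21, and the day 7 effect higher for 10 and lower for 11. Alpl differed by -2.14 at day 3 (adjusted p = 0.0123) and -2.99 at day 7 (0.00519), Slc22a3 by -2.42 (0.0124) and -2.86 (0.00983), Slc25a25 by -1.33 (0.0461) and -1.79 (0.0258), and Slc41a3 by -2.62 (0.0226) and -3.50 (0.0125). Sarcolipin (Sln), which did not pass at day 1, differed by -2.47 (0.0221) and -3.80 (0.00903). At day 3 alone this held for Sprr1a (-1.64, adjusted p = 0.012) and the immediate early gene Ier2 (-0.85, 0.0406), and at day 7 alone for Cited1 (-3.40, 0.0258), Srxn1 (-1.35, 0.0386), Gpt2 (-1.03, 0.0445) and Nfil3 (-1.16, 0.0482).

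Among the 19 with a larger later effect, Dusp13, a phosphatase gene that had already risen at day 1, differed by 2.29 at day 3 (adjusted p = 0.007), and Pvr by 1.2 (0.0199). The others did not pass at day 1. Prkag3, the muscle subunit of AMP-activated kinase, had -0.57 at day 1 and differed by 2.55 at day 3 (0.012) and 2.74 at day 7 (0.00983). The small GTPase Rras2 had -0.12 and differed by 1.56 (0.0071) and 1.143 (0.0258). Arhgdig had 0.12 and differed by 2.86 (0.00879) and 1.91 (0.0447), and Fam19a5 had 0.16 and differed by 1.87 at day 3 (0.0071). Members of the lists with a larger effect at day 3 were the receptor subunits Chrna1 (2.57, adjusted p = 0.0468) and Chrnb1 (1.78, 0.028), the synaptic adaptor Dok7 (2.07, 0.0474), the transcription factors Runx1 (1.68, 0.02) and Mef2a (1.58, 0.0199), Fgf13 (2.93, 0.0208), the potassium channel Kcnn3 (2.50, 0.0145) and the sarcomere genes Actn3 (2.61, 0.0406) and Myom3 (1.68, 0.0468). At day 7 this held for the neurotrophin receptor Ngfr (1.88, 0.0302).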

How the results depend on the processing

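None of the 44 genes that passed at day 1 changed direction under any alternative run. Most alternatives could not have changed it. All 44 moved the same way in each day 1 mouse, so leaving out a mouse kept the sign. Dropping the trend or the block left the day 1 difference as it was. In all, 8 genes passed under every alternative that gave them a value (Myog, Cited1, Myod1, Slc22a3, Alpl, Klhl30, Arpp21 and Srxn1). With 6 samples, 1 gene passed with a filter at 5, with median-of-ratios scaling and with an equal sum in every sample, 74 passed after rescaling to the muscle fiber markers, and 0 to 3 with a mouse left out. With the spread from 18 samples, the 44 became 96 after rescaling to the muscle markers (which moved the median of all genes to 0.144), 27 with the transcript of highest mean value, 141 with the muscle covariate and 15 to 248 with a day 1 or later mouse left out. Without the replicate block, 30 genes passed (23 of the 44), and with 6 samples 0 passed with or without it. For the difference of day 3 from day 1, the 70 genes became 18 without the replicate block, 35 with equal sums, 20 with the highest transcript, 250 with the muscle covariate and 1 to 157 with a mouse left out. For that of day 7, the 21 became 32 with an offset of 1, 12 with any value above 0 kept, 9 with equal sums, 52 after rescaling to the muscle markers, 6 with the highest transcript, 64 with the muscle covariate, 25 without the replicate block and 0 to 126 with a mouse left out. Rescaling to the muscle markers shifts all genes of a sample together. With the spread from 18 samples it moved the adjusted p of Myog in limma from 0.000851 to 2.9e-10. Counts under it are therefore not a check for muscle content. The causes of these changes were not tested. Of 546 list medians under alternatives, 12 moved by more than their spread over mice. The covariate was not run with 6 samples. With 3 mice and depths of at least 14500000 estimated reads, the spread between mice limits these results. Exons of 3 genes that passed, Asb5, Pfkfb1 and Slc25a25, overlap another tested gene on the opposite strand, and reads from the shared stretches cannot be told apart without strand. The overlapping genes, Spcs3, Apex2 and Naif1 in that order, had log2 differences of 0.05, -0.03 and 0.07 at day 1. Their part in the calls was not tested.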

Other observations

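1 entry of the table carries a name that is not from the transcript annotation. Its values in the sham and denervated pads at day 1 were 0.0192 and 0.0282 in mouse 1, 11.4 and 12.7 in mouse 2, and 4.29 and 4.10 in mouse 3, so both sides of each mouse had similar values.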
